A study of Mus musculus with 8 samples.

Results

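The T cell receptor segment genes are the variable (V), diversity (D), joining (J) and constant (C) genes of the 4 receptor chains. They were taken as every gene that the deposited annotation classes as a T cell receptor V, D, J or C gene, which gave 226 of 54532 genes. The 226 genes comprised 144 V, 4 D, 70 J and 8 C genes. By name, 160 belonged to the alpha chain, 39 to the beta chain, 15 to the gamma chain and 10 to the delta chain. The gamma genes carried the prefix Tcrg- (10 genes) or Trg (5 genes), and 2 V genes with clone names carried no chain prefix. Another 10 alpha V genes have names that join an alpha and a delta name, and they were counted as alpha. The counts came from whole lungs of CC-LR mice, 4 labelled Control and 4 labelled TTI-101, at 14 weeks of age, with 1 library for each sample. All 8 samples carried the same genotype: CC-LR mice, on a C57BL/6 background, express K-ras G12D in lung epithelium through a Cre recombinase placed at the club cell secretory protein locus, and they form lung tumors spontaneously. TTI-101 is a small-molecule STAT3 inhibitor, and it was given for 4 weeks. The sources used here do not give the route of TTI-101 for these samples, what the controls received, or the sex of each mouse, although the study used both sexes.

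An alpha-beta T cell receptor pairs an alpha with a beta chain, and a gamma-delta receptor pairs a gamma with a delta chain. During T cell development, RAG recombinase joins a V and a J segment, with a D segment between them in beta and delta chains, and splicing then links the joined exon to a constant region. Reads over a constant region are therefore shared by all rearrangements of a chain, while reads over V and J segments are spread over many genes. Most T cells of lymphoid organs carry the alpha-beta receptor, while gamma-delta T cells are enriched in barrier tissues such as the lung, where many of them make interleukin 17. Germline segments can also be transcribed without being joined.

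The sequences of all 226 genes were available from GENCODE release M21 on GRCm38, at the same coordinates as in the deposited annotation. The beta constant genes Trbc1 (chr6:41538218-41539881, plus strand) and Trbc2 (chr6:41546730-41548352, plus strand) are shown because the near identity of this pair bears on how reads are divided between them. Their coding sequences, of 518 bases each, differed at 23 positions, with a longest shared run of 259 bases. The last 150 coding bases, 5′ to 3′, hold 22 of those differences, which are in capitals.

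Trbc1: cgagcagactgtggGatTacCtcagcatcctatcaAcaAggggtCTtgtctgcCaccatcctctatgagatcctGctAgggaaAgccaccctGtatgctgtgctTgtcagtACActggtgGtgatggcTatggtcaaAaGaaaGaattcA
Trbc2: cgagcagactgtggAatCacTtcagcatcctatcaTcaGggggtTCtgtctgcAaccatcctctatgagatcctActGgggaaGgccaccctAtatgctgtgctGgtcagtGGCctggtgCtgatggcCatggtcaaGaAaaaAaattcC

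The J segments are shown because they are short and carry few reads. Capitals mark the stretch that encodes the conserved phenylalanine, glycine, any residue, glycine motif of J segments, searched on the coding strand as TTTGG or TTCGG followed, after any 4 bases, by GG and the last base of that codon. Shown are the beta segment with the most J counts, Trbj1-2 (chr6:41534001-41534048), its neighbour Trbj1-1 (chr6:41533864-41533911), Trdj2 (chr14:54136779-54136837) and Trgj1 (chr13:19210343-19210402), all on the plus strand.

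Trbj1-2: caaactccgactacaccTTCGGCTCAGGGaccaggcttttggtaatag
Trbj1-1: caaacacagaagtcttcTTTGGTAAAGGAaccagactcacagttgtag
Trdj2: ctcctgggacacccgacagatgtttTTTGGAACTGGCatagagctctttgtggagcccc
Trgj1: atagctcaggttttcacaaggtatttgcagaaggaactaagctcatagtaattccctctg

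The letters were found in 55 of 70 J segments (78.6%), comprising 42 of 51 alpha, 11 of 13 beta, 2 of 2 delta and 0 of 4 gamma segments. In the first 60 bases of all 141515 GENCODE transcripts, read on either strand, the share was 1.28%. J segments were 46 to 66 bases long and V segments 328 to 595 bases.

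The last 60 germline bases of V segments are shown for Trdv4 (chr14:54074905-54075515) and Trbv13-2 (chr6:41121396-41121832), the V genes with the most counts, and for Tcrg-V6 (chr13:19190356-19190929). All lie on the plus strand. Capitals mark the codon of the conserved second cysteine, after which the joined sequence varies between T cells.

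Trdv4: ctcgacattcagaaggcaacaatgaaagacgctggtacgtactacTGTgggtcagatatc
Tcrg-V6: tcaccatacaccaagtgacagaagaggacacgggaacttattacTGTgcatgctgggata
Trbv13-2: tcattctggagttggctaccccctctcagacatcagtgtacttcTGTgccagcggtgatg

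The depth of these libraries set what could be measured for the segments. Total counts were 16446481 to 26873509 in controls and 16075855 to 25920509 in TTI-101 libraries, and in each group replicate 1 was the deepest. The lung markers Sftpc (surfactant protein C) and Scgb1a1 (the club cell secretory protein) were at 16673 to 40617 and at 10013 to 31148 CPM (counts scaled to a common library size with edgeR's TMM factors). Control 4 stood apart from the rest, with 5.56% of counts from mitochondrial genes against 2.01% to 2.85% in the other libraries, and with a value of 101 on the first principal component against -39.3 to 17.9. The segment genes held 9829 counts over all 8 libraries. Of the 226 genes, 141 had at least 1 count, 85 had none (79 of them alpha), and 173 had fewer than 10 counts over all libraries together. A count of 0 in a library allowed a level of up to 3 counts, or 0.110 to 0.192 CPM, so for these genes absence cannot be told from a low level. Intervals and limits of this kind cover counting error only.

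Most of the signal lay in constant regions. The 8 C genes took 82.6% of segment counts, V genes 13.6%, J genes 3.58% and D genes 0.305%. By chain, beta genes took 60.8%, alpha genes 18.7%, gamma genes 12.6% and delta genes 7.79%. The filter on low counts, which asks for about 10 counts in enough libraries, kept 9 segment genes: 7 C genes, Trbv13-2 and Trdv4. In this filter a gene can pass through 1 group alone, and the other 217 genes were not tested. Trbv13-2 and Trdv4 reached 10 counts in every TTI-101 library but in no control except control 1. They passed largely through the TTI-101 group, so their fitted differences are given as descriptions.

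TTI-101 and Control libraries were compared gene by gene with edgeR's quasi-likelihood test over 17138 genes. After Benjamini-Hochberg adjustment, edgeR called 0 of the 9 tested segment genes at 0.05, beside 0 of all genes tested (0%). At an unadjusted p under 0.05, 1 of the 9 passed, Trac, which was higher in TTI-101 libraries. Over all genes tested, 6.61% passed at that level in either direction and 3.02% in the higher direction. DESeq2 called 0 segment genes after adjustment, beside 4 of its 31769 genes (0.0126%), and 3 of 141 without adjustment, beside 5.32% of all its genes. For 0 of the 9 genes did all TTI-101 libraries lie above all controls, and for 0 did they all lie below (background 1.53% and 1.43%). The log2 fold changes of the 7 tested C genes ran from -0.42 (Tcrg-C4) to 0.68 (Trac), beside a median of 0.00 over all genes tested. Trbv13-2 and Trdv4 were left out of this range because of how they passed the filter. In bulk tissue, fewer cells of a type and less RNA per cell cannot be told apart.

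Trac (ENSMUSG00000076928, chr14:54220521-54224206) encodes the constant region of the alpha chain. Its CPM values were 10.8, 5.32, 7.43 and 4.48 in controls 1 to 4 and 12.7, 8.29, 13.5 and 10.5 in TTI-101 libraries 1 to 4. The TTI-101 values lay toward the upper end, with 2 of 4 above every control, but the groups overlapped. The means were 7.0 ± 2.81 CPM (SD, n = 4) in controls and 11.2 ± 2.34 CPM (SD, n = 4) with TTI-101. This corresponds to a log2 fold change of 0.68 with a standard error (SE) of 0.29, and edgeR gave an unadjusted p of 0.0436 and an adjusted p of 0.657. A two-sided exact permutation test of log2 CPM gave p = 0.0857, where the smallest value that 70 assignments allow is 0.0286. With each library left out in turn, Trac's log2 fold change ranged from 0.52 to 0.97, and its unadjusted p from edgeR exceeded 0.05 without control 2, 3 or 4 or TTI-101 1, 3 or 4, reaching 0.111.

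Trbc2 (ENSMUSG00000076498) and Trbc1 (ENSMUSG00000076490) encode the alternative constant regions of the beta chain. Trbc2 was at 20.3, 13.6, 15.9 and 8.0 CPM in controls and at 26.3, 12.6, 19.4 and 17.8 CPM with TTI-101. TTI-101 2 lay below control 2, and the groups overlapped widely. The Trbc2 log2 fold change was 0.40 (SE 0.30, edgeR adjusted p = 0.701), from means of 14.4 ± 5.13 and 19.0 ± 5.66 CPM (SD, n = 4 each). Trbc1 was at 17.6, 10.6, 12.8 and 7.68 CPM in controls and at 18.2, 11.2, 15.8 and 13.5 CPM with TTI-101. Control 4 held the lowest value of both genes. The Trbc1 log2 fold change was 0.27 (SE 0.26, edgeR adjusted p = 0.762). With a library left out, Trbc2 ranged from 0.20 (without TTI-101 1) to 0.61 (without control 1) and Trbc1 from 0.11 (without control 4) to 0.51 (without control 1). The ratio of Trbc1 to Trbc2 counts was 0.69 to 0.96 over the 8 libraries, and for reads in the sequence they share the division between the genes depends on the counting.

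Trdc (ENSMUSG00000104876, chr14:54142851-54148868), the constant region of the delta chain, was at 4.51, 3.53, 3.33 and 4.73 CPM in controls. It was at 4.30, 3.36, 2.45 and 5.11 CPM in TTI-101 libraries 1 to 4. The highest and the lowest Trdc values both came from TTI-101 libraries, and the ranges overlapped. The means were 4.03 ± 0.700 and 3.8 ± 1.15 CPM (SD, n = 4 each), and the log2 fold change was -0.08 (SE 0.29, edgeR adjusted p = 0.946). Trdc shares part of its span, on the opposite strand, with Trdv5 (10 counts over all libraries) and with the antisense gene Gm43434 (10 counts), against 614 counts for Trdc. The library kit kept strand, but the strand setting of the counting is not given in the sources used here.

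The gamma chain has 4 constant genes on chromosome 13. Tcrg-C1 (chr13:19214103-19217024) was at 5.03, 2.03, 2.77 and 3.26 CPM in controls and at 2.94, 3.24, 2.06 and 3.65 CPM with TTI-101. Control 1 held the highest Tcrg-C1 value and control 2 the lowest. The log2 fold change was -0.15 (SE 0.33, edgeR adjusted p = 0.907), and it was 0.14 without control 1. Tcrg-C2 (chr13:19304649-19307551, minus strand) was at 3.41, 2.27, 2.27 and 0.831 CPM in controls and at 3.13, 2.94, 1.78 and 2.13 CPM with TTI-101. Control 4 was the low library for Tcrg-C2, and without it the sign of the log2 fold change turned from 0.17 (SE 0.41, edgeR adjusted p = 0.913) to -0.08. Tcrg-C4 (chr13:19344558-19352756) was at 1.98, 1.20, 1.22 and 1.47 CPM in controls and at 1.39, 0.781, 1.17 and 1.03 CPM with TTI-101. In 3 of 4 TTI-101 libraries Tcrg-C4 lay below every control, while TTI-101 1 lay among the controls. The log2 fold change was -0.42 (SE 0.34, edgeR adjusted p = 0.720), and the two-sided exact permutation test gave p = 0.114. Tcrg-C3 had 5 counts in control 1, 1 count in TTI-101 1 and 0 in the other 6 libraries, and was not tested. The coding sequences of Tcrg-C1 and Tcrg-C2 were 97.4% identical and those of Tcrg-C1 and Tcrg-C4 76.9%, so counts of the first pair may be divided unreliably.

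Per length, as RPKM (CPM divided by the gene length in kilobases from the deposited table), the constant genes stood in the order Trbc2 (24.2), Trbc1 (17.9), Trac (9.76), Tcrg-C1 (3.38), Tcrg-C2 (2.57), Tcrg-C4 (1.30), Trdc (1.01) and Tcrg-C3 (0.0425), as means over 8 libraries. The control ranges of several neighbours overlapped: Trbc2 at 20.9 ± 7.41 and Trbc1 at 16.2 ± 5.62, Tcrg-C1 at 3.54 ± 1.38 and Tcrg-C2 at 2.40 ± 1.16, and Tcrg-C4 at 1.49 ± 0.370 and Trdc at 1.04 ± 0.181 RPKM (SD, n = 4 each). In both groups the mean RPKM of each of the 3 alpha and beta constant genes lay above that of every gamma and delta constant gene. The GENCODE transcript of Trdc has 3865 bases, of which 458 are coding. Those of Trbc1, Trbc2, Tcrg-C1, Tcrg-C2 and Tcrg-C4 have 692 to 985 bases, so the low place of Trdc depends on its annotated length. The transcript of Trac has 413 bases, so the place of Trac may also depend on the length used. The plot of constant-region levels gives the 7 tested genes by library.

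**Figure D1:**
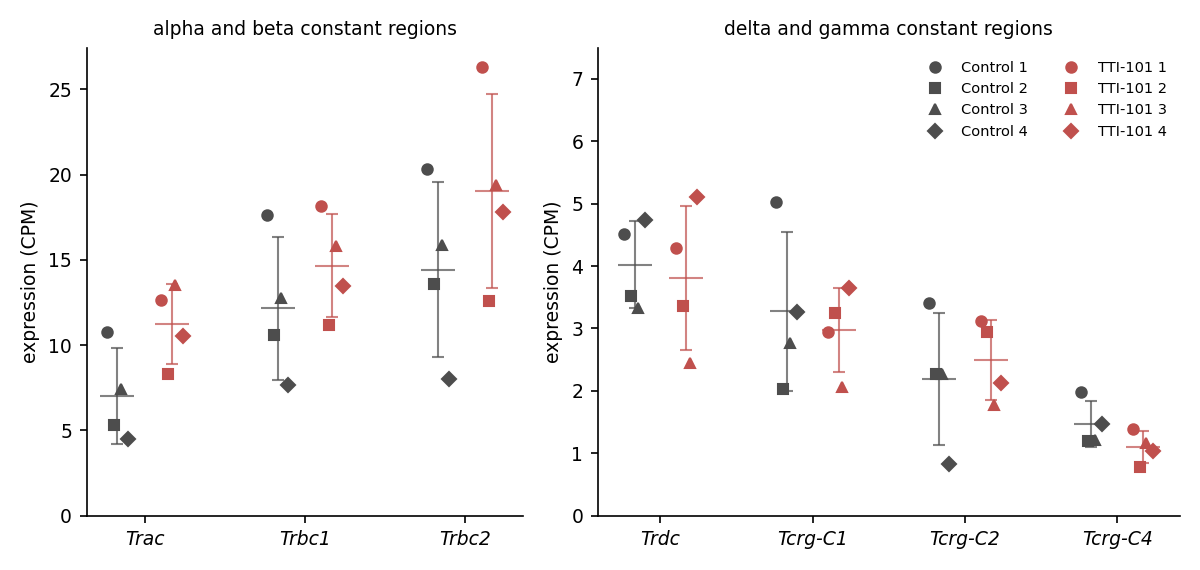
Level of the 7 tested constant-region genes in each library, in TMM-scaled CPM, with 4 Control and 4 TTI-101 points for each gene and the group mean with its SD. The groups overlap for every gene, and Trac has the TTI-101 values farthest toward the upper end, at 8.29 to 13.5 CPM against 4.48 to 10.8 CPM in controls.

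The summed levels of each chain are given as descriptions with no test, and no difference between chains was tested. Alpha chain genes summed to 14.2, 5.92, 8.65 and 5.88 CPM in controls and to 16.5, 9.91, 16.2 and 13.0 CPM with TTI-101. Beta chain genes summed to 48.9, 28.5, 31.9 and 16.3 CPM in controls and to 55.2, 26.7, 42.2 and 40.7 CPM with TTI-101. For both chains control 1 lay among the TTI-101 values, and the difference of mean log2 CPM, TTI-101 minus Control, was 0.75 for alpha and 0.45 for beta, against SDs among controls of 0.600 and 0.652. The gamma chain summed to 12.4, 6.10, 6.82 and 6.27 CPM in controls and to 8.4, 7.45, 5.61 and 7.97 CPM with TTI-101. The delta chain summed to 6.13, 4.06, 4.05 and 5.12 CPM in controls and to 5.24, 4.68, 3.28 and 6.2 CPM with TTI-101. These gamma and delta sums had differences of -0.05 and -0.01 on the log2 scale, against SDs among controls of 0.479 and 0.286. An SD among single libraries is not the error of a difference between group means.

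Taken as receptors, alpha-beta genes summed to 40.1 ± 17.2 CPM in controls and 55.1 ± 14.5 CPM with TTI-101 (SD, n = 4 each). Gamma-delta genes summed to 12.7 ± 3.87 and 12.2 ± 2.37 CPM. Without control 4, which had the lowest alpha-beta sum of 22.2 CPM, the control means were 46.1 ± 15.1 and 13.2 ± 4.62 CPM (SD, n = 3).

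The share of constant-region counts that fell in gamma and delta genes does not depend on scaling between libraries. It was 23.7%, 23.4%, 21% and 33.8% in controls 1 to 4, with exact 95% (Clopper-Pearson) intervals of 21.7% to 25.7%, 20.2% to 26.9%, 18.3% to 24.0% and 29.6% to 38.3%. With TTI-101 it was 17.1%, 24.4%, 13.3% and 22.2%, with intervals of 15.4% to 18.9%, 21.2% to 27.7%, 11.2% to 15.5% and 19.5% to 25.1%. The highest share came from control 4 and the lowest from TTI-101 3, while the values of TTI-101 2 and 4 lay within the range of the controls. The group means were 25.5% ± 5.68 and 19.2% ± 5.01 (SD, n = 4 each), a difference of -6.27 percentage points. Without control 4 the control mean was 22.7% ± 1.47 (SD, n = 3) and the difference -3.49 points. The interval of control 4 lay above those of the other 3 controls, so controls differed in this share by more than counting error.

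**Figure D2:**
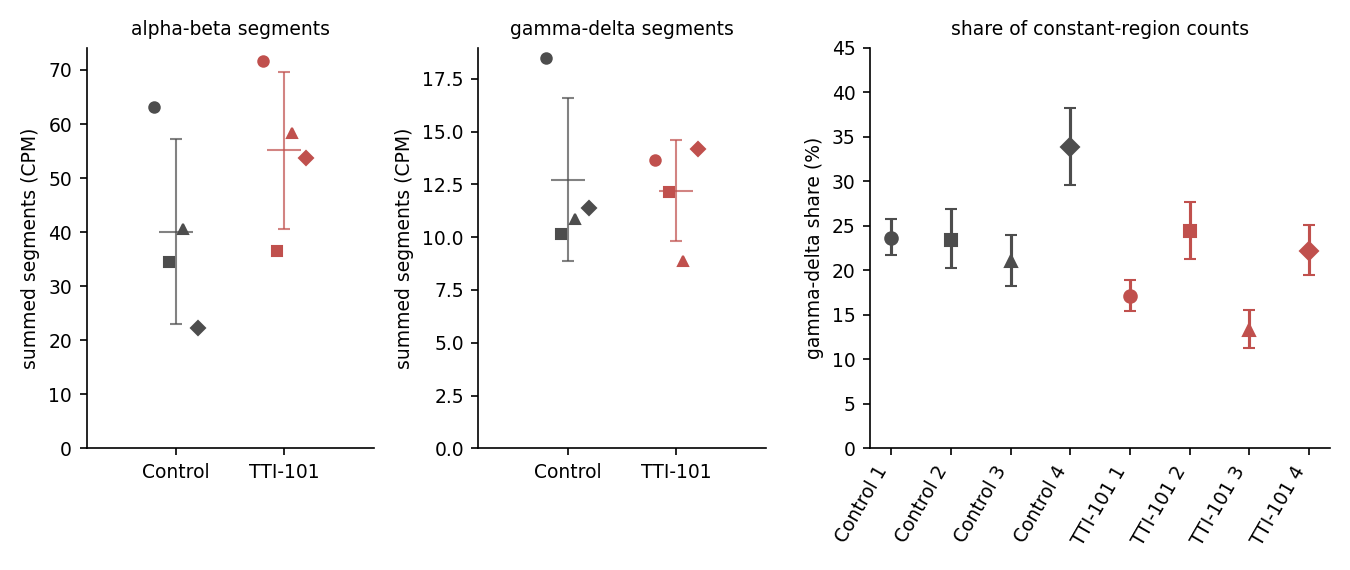
Summed TMM-scaled CPM of alpha-beta genes (left) and gamma-delta genes (middle) by group, with 1 symbol for each library and the mean with its SD, and the percent of constant-region counts in gamma and delta genes (right) in each library with its exact 95% interval. The gamma-delta sums of both groups cover 8.89 to 18.5 CPM, and control 4 has both the lowest alpha-beta sum (22.2 CPM) and the highest share (33.8%).

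The constant-region counts were also set against those of the CD3 chains, which carry every T cell receptor to the membrane, as a description with no test. The sum of Cd3e, Cd3d and Cd3g was 32.4, 15.7, 20.0 and 9.53 CPM in controls and 36.0, 17.4, 30.0 and 26.6 CPM with TTI-101. For each 100 CD3 counts there were 150 to 211 alpha-beta constant counts in controls and 157 to 184 with TTI-101. For gamma-delta constant counts the values were 46.6, 57.4, 47.9 and 108 in controls and 32.8, 59.3, 24.9 and 44.7 with TTI-101. Control 4, with the lowest CD3 sum, had the highest number of both per 100 CD3 counts. The ratio of Trdc to Trac counts was 0.42, 0.66, 0.45 and 1.06 in controls and 0.34, 0.41, 0.18 and 0.49 with TTI-101, with control 4 the highest again.

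V segments encode most of the part of the receptor that contacts antigen, and 91 of 144 V genes had a count in at least 1 library. Trdv4 (V of the delta chain) and Trbv13-2 had counts in all 8 libraries, and 30 V genes had them in a single library. Trdv4 had 35, 7, 8 and 6 counts in controls and 18, 19, 10 and 13 with TTI-101. The 2 ends of its range came from controls. In CPM, control 1 was at 1.28, far above the other controls at 0.384 to 0.444. The Trdv4 log2 fold change was 0.27 (SE 0.50, edgeR adjusted p = 0.883). It was 0.91 without control 1 and 0.06 without TTI-101 2. Trbv13-2 had 29, 4, 3 and 1 counts in controls and 23, 12, 18 and 10 with TTI-101. Every TTI-101 library exceeded controls 2 to 4 but not control 1. The log2 fold change of Trbv13-2 was 0.94 (SE 0.67, edgeR adjusted p = 0.689), and the two-sided exact permutation test gave p = 0.143. Without control 1 the Trbv13-2 log2 fold change was 2.30 (edgeR unadjusted p = 0.00295, adjusted p = 0.284). It was 0.63 without control 4 (edgeR unadjusted p = 0.329). With all 8 libraries, limma-voom gave 1.46 with an unadjusted p of 0.0480 and an adjusted p of 0.653. Because Trbv13-2 passed the filter largely through the TTI-101 group, none of these p-values is taken as support for a difference.

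The next most counted beta V genes were Trbv1, Trbv3, Trbv16 and Trbv12-2. Trbv1 had 32, 9, 4 and 0 counts in controls and 19, 3, 17 and 8 with TTI-101. Trbv3 had 22, 3, 8 and 0 counts in controls and 17, 1, 16 and 4 with TTI-101. In both genes the deep libraries, control 1 and TTI-101 1, held the highest counts and control 4 had none. Trbv16 had 16, 1, 0 and 0 counts in controls and 21, 3, 15 and 3 with TTI-101, and Trbv12-2 had 10, 9, 0 and 0 against 13, 3, 7 and 9. In all, 21 of 22 beta V genes had a count, and beta V genes held 752 counts. Counts of related genes may be divided by sequence similarity, since Trbv13-2 and Trbv13-3 were 90.6% identical in coding sequence and Trbv12-1 and Trbv12-2 88.2%.

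The alpha chain has the largest V repertoire, 108 genes of which 62 carry the d or n that marks duplicated copies, and only 59 had a count. The 108 genes held 322 counts. The 5 with the highest mean CPM were Trav7-3, Trav7-4, Trav3-3, Trav6n-6 and Trav9-2. Trav7-3, the first of them, had 7, 0, 3 and 0 counts in controls and 4, 0, 5 and 0 with TTI-101. Trav3-3 had 12 counts in control 1 and 3 each in TTI-101 1 and 3, with 0 in the other 5 libraries. Trav7-4 and its duplicate Trav7d-4 were 99.4% identical in coding sequence, so the division of reads between them depends on the counting.

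The alpha segments of 2 types of T cells with near-invariant receptors were at or close to the floor. Trav11 and Trav11d, the alpha V genes of natural killer T cells, had 0 and 2 counts over all libraries, both from TTI-101 2, and Traj18, the J segment joined to them, had 1 count, in TTI-101 3. Trav1 and Traj33, used by mucosal-associated invariant T cells, had 1 and 0 counts. At this depth these alpha segments were not measurable. Trdv4 and Tcrg-V6, also named here as segments of innate-like T cells, had 116 and 27 counts over all libraries.

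Gamma V genes held 121 counts. Trgv2 had 17, 0, 4 and 4 counts in controls and 8, 6, 2 and 3 with TTI-101. Tcrg-V6, a gamma V gene of interleukin-17-producing gamma-delta T cells, had 8, 2, 2 and 7 counts in controls and 0, 0, 1 and 7 with TTI-101. Tcrg-V6 was at 0 in TTI-101 1, the deepest TTI-101 library, and at its highest counts in control 1, control 4 and TTI-101 4, so the values overlapped. Tcrg-V4, also used by gamma-delta cells in lung, had 2, 3, 1 and 0 counts in controls and 7, 1, 0 and 3 with TTI-101, while Tcrg-V5 had 8, 0, 1 and 0 against 0, 1, 6 and 0. Tcrg-V1 had 6 counts in control 1, 5 in TTI-101 1 and 2 in TTI-101 3, with 0 elsewhere. Besides Trdv4, the delta V genes were sparse: Trdv5, Trdv2-2 and Trdv1 had 10, 6 and 2 counts over all libraries.

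J and D segments carried 352 and 30 counts. The 13 beta J genes held 273 of them. Trbj1-2 had 4, 1, 0 and 0 counts in controls and 18, 2, 2 and 14 with TTI-101. Trbj1-1 had 6, 2, 3 and 0 counts in controls and 13, 0, 4 and 6 with TTI-101, and Trbj1-3 had 6, 7, 0 and 0 against 6, 0, 0 and 11. In TTI-101 4, the Trbj1 cluster had 62 counts, more than in the deeper control 1 (50) or TTI-101 1 (47), while the other 5 libraries had 0 to 14. Trbj2 counts were 20, 5, 8 and 1 in controls and 17, 8, 3 and 14 with TTI-101. Per 100 beta constant counts, beta J counts were 6.76, 4.70, 2.71 and 0.41 in controls and 5.42, 4.04, 2.05 and 14.8 with TTI-101, so TTI-101 4 and control 4 stood at the 2 ends. Beta V counts per 100 were 14.2 in TTI-101 4, between the values of other libraries, and 3.67 in control 4, the lowest of all. The diversity segment Trbd1, which lies upstream of the Trbj1 cluster, had 4, 2, 3 and 0 counts in controls and 11, 0, 0 and 6 with TTI-101.

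The remaining J genes were near the floor. The 51 alpha J genes held 43 counts, led by Traj2 (9 counts), Traj6 (6 counts, all in TTI-101 1) and Traj59 (4 counts). Gamma J counts came to 20, led by Trgj1 with 6 and 2 in controls 1 and 2 and 5 in TTI-101 4. Delta J counts came to 16, of which Trdj2 held 15.

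**Figure D3:**
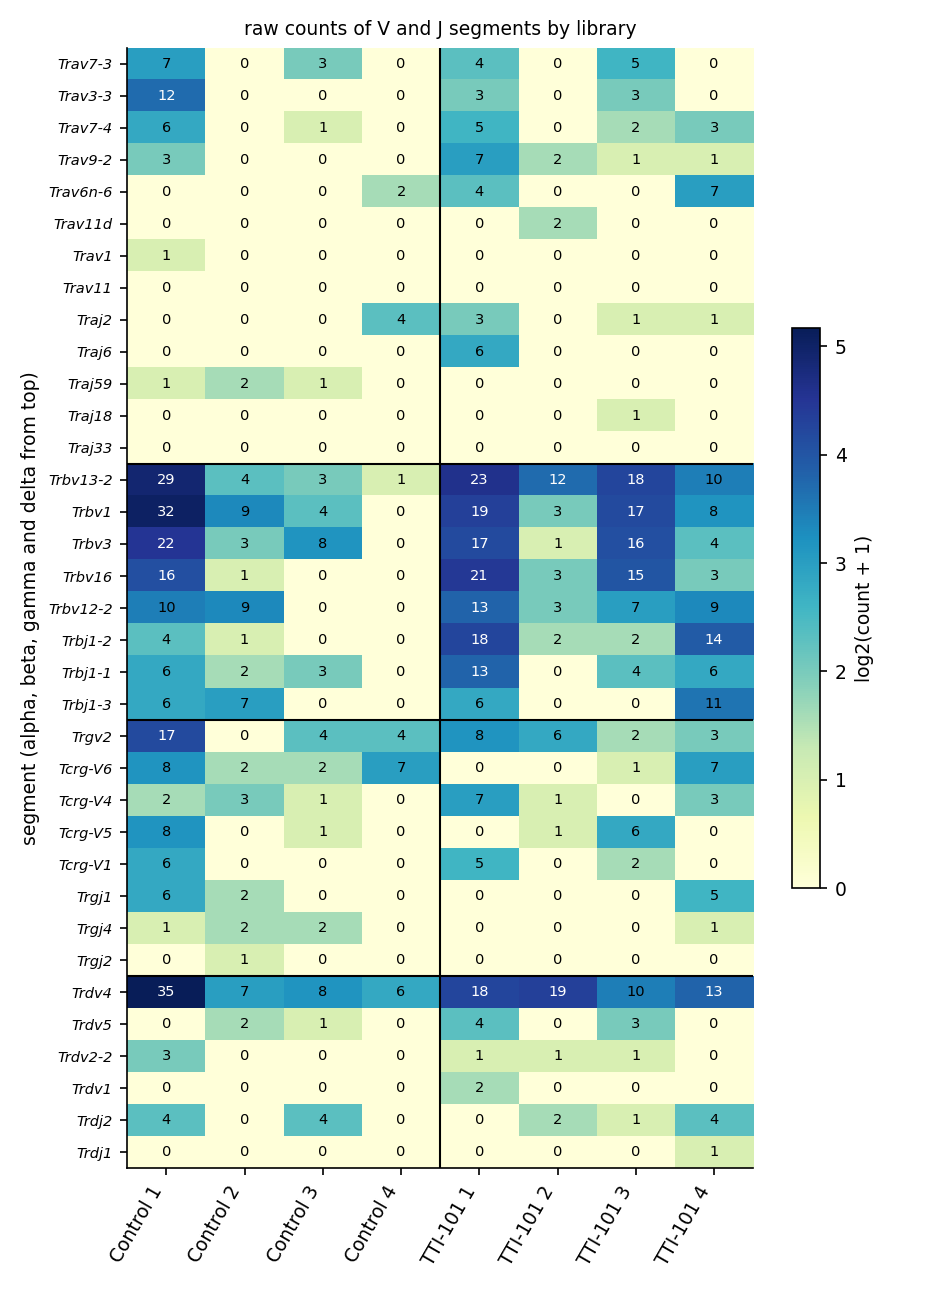
Raw counts of the named V and J segments, printed in each cell, with segments in rows (alpha, beta, gamma and delta from the top), the 8 libraries in columns and log2(count + 1) as the color. The deep libraries control 1 and TTI-101 1 hold most of the beta counts, control 4 is at 0 for 7 of the 8 beta segments shown, and Trbj1-2 and Trbj1-3 reach 14 and 11 counts in TTI-101 4.

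The number of V genes detected is a rough measure of how many segments the T cells of a sample used. The number with at least 1 count was 52, 21, 26 and 12 in controls and 53, 32, 48 and 41 with TTI-101, from 393, 73, 78 and 44 V counts in controls and 346, 81, 182 and 135 with TTI-101. Because more counts detect more segments, each library was also reduced to 44 V counts, the smallest total, by its hypergeometric expectation. At 44 counts the expected numbers were 23.9, 17.2, 21.1 and 12 in controls and 26.1, 21.8, 23.9 and 24.5 with TTI-101. Control 1 lay at the level of TTI-101 3, controls 2 and 3 lay below all TTI-101 libraries, and control 4 was lowest. The means were 18.5 ± 5.15 and 24.1 ± 1.76 segments (SD, n = 4 each), and without control 4 the control mean was 20.7 ± 3.36 (SD, n = 3). With alpha and beta V genes alone, reduced to 27 counts, the means were 13.2 ± 3.45 and 17.3 ± 0.721 segments. Counts per 100 constant-region counts did not separate the groups, at 22.6, 11.3, 9.48 and 9.24 V counts in controls and 18.9, 11.5, 18.0 and 15.3 with TTI-101.

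The leading V gene also differed between libraries. In control 4, Tcrg-V6 and Trbv13-1 each held 7 of 44 V counts (15.9%), and the 5 leading genes 65.9%. In TTI-101 2, Trdv4 held 19 of 81 V counts (23.5%). In the deepest TTI-101 library, Trbv13-2 led with 23 of 346 (6.65%), and the 5 leading genes held 28.3%.

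**Figure D4:**
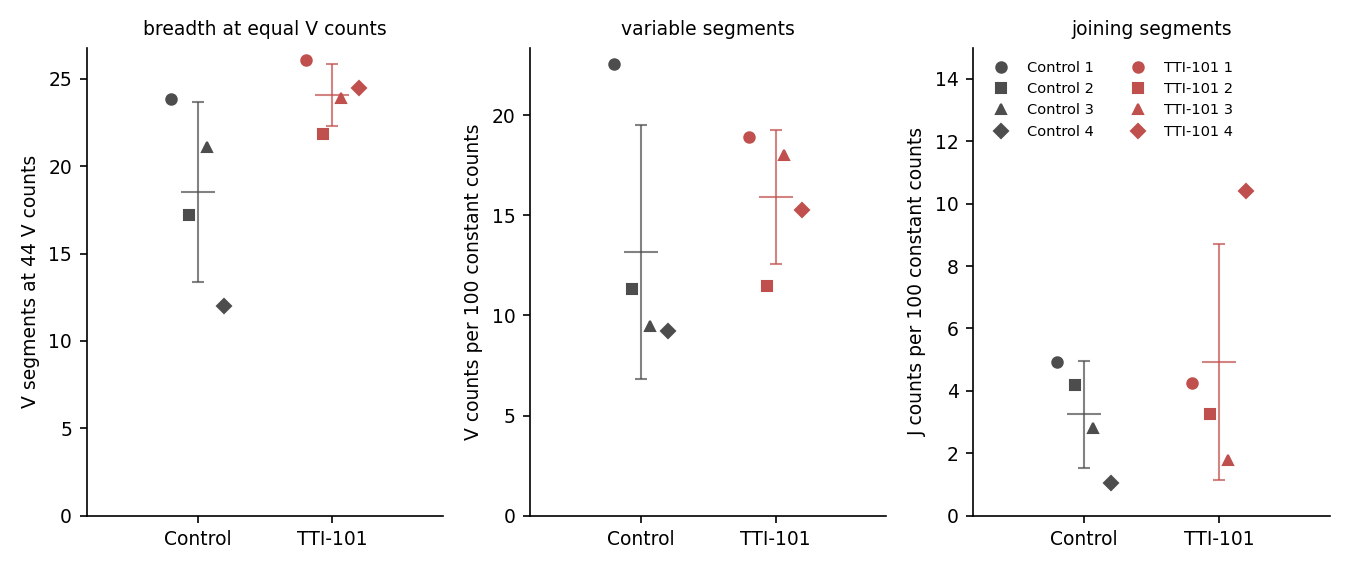
V segments expected at 44 V counts (left), V counts per 100 constant-region counts (middle) and J counts per 100 constant-region counts (right), with 1 symbol for each library and the group mean with its SD. At equal counts the TTI-101 libraries lie at 21.8 to 26.1 segments and the controls at 12 to 23.9, and TTI-101 4 stands apart in J counts at 10.4 per 100.

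The receptor chains signal through CD3 and a set of kinases and adaptors, given next from lists of genes of this pathway. Of 11 genes for CD3, coreceptors and other T cell surface proteins, all 11 were tested and all had log2 fold changes above 0, with a median of 0.77 beside 0.00 over all genes tested and 50.6% of all genes above 0. None of the 11 passed an unadjusted p of 0.05 in edgeR, beside 6.61% of all genes tested. In DESeq2 3 did (Cd2, Cd6 and Cd8a), beside 5.32%, and in limma-voom 1 did (Cd6), beside 6.41%. Without control 1 edgeR passed 9 of the 11, beside 13.7% of all genes, and without TTI-101 2 it passed 4, beside 14.2%. Without control 2, 3 or 4 or TTI-101 1, 3 or 4 it passed 0, beside 2.42% to 6.51%. Of 23 proximal signaling genes, all 23 were above 0 with a median of 0.49. In edgeR 1 passed, beside 6.61% of all genes tested: Csk, the kinase that holds Lck and Fyn in check. For this list DESeq2 passed 3, beside 5.32% of all its genes. In the same list edgeR passed 13 without control 1, beside 13.7%, and 6 without TTI-101 2, beside 14.2%. It passed 0 without control 4 or TTI-101 3, beside 3.03% and 2.42%. edgeR called 0 of these 34 genes after adjustment. Members of a list can share cells, so a shared sign in 34 genes is not 34 separate observations. Mean levels over all libraries were 179, 152 and 112 CPM for Plcg1, Ptprc and Csk. For Cd3d, Cd3e and Cd3g they were 7.06 to 8.45 CPM. How much of the signaling counts came from T cells was not tested.

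Cd3e, a signaling chain of the receptor complex, was at 11.5, 4.72, 4.49 and 2.37 CPM in controls and at 15.3, 5.70, 9.23 and 10.3 CPM with TTI-101. Control 1 lay above 3 of the TTI-101 libraries, and the log2 fold change was 0.80 (SE 0.45, edgeR adjusted p = 0.657). It was 1.39 without control 1 (edgeR unadjusted p = 0.00438) and 0.53 without TTI-101 1. Cd8a, the coreceptor of cytotoxic T cells, was at 13.8, 5.50, 3.72 and 1.92 CPM in controls and at 16.3, 5.58, 15.8 and 12 CPM with TTI-101. It had a log2 fold change of 0.98 (SE 0.54, edgeR adjusted p = 0.657), while Cd4, the coreceptor of helper T cells, had 0.54 (SE 0.35, edgeR adjusted p = 0.670). The Cd8a value was 1.74 without control 1 (edgeR unadjusted p = 0.0030) and 0.69 without control 4 (edgeR unadjusted p = 0.174). Lck, the kinase that phosphorylates CD3, was at 23.2, 13.7, 13.3 and 5.82 CPM in controls and at 26.2, 13.8, 28.5 and 23.1 CPM with TTI-101, again with control 1 within the TTI-101 range. Its log2 fold change was 0.71 (SE 0.37, edgeR adjusted p = 0.657), with 1.07 without control 1 and 0.46 without control 4. Csk was at 110, 97.4, 98.7 and 65.2 CPM in controls and at 124, 107, 171 and 119 CPM with TTI-101, a log2 fold change of 0.49 (SE 0.20, edgeR unadjusted p = 0.0327 and adjusted p = 0.657).

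The lineage lists are named for alpha-beta and gamma-delta T cells, but their genes were counted in whole lung. Ets1 and Zbtb7b had the highest means of the alpha-beta list, at 224 and 72.6 CPM over all libraries. Sox13, Il1r1, Kcnk1 and Maf had those of the gamma-delta list, at 107, 55.9, 38.6 and 34.7 CPM. Trdc did not exceed 5.11 CPM in any library. How much of the counts of either list came from T cells was not tested. All 8 factors of the alpha-beta lineage were above 0 with a median log2 fold change of 0.61, and 0 passed an unadjusted p of 0.05 in edgeR. Tcf7, a factor of naive and memory T cells, was at 51.9, 35.9, 31.5 and 10.2 CPM in controls and at 67.3, 25.0, 66.7 and 53.3 CPM with TTI-101. TTI-101 2 lay below 3 of the controls. Of 16 gamma-delta and innate-like genes, 14 were tested, with 7 above 0, 7 below 0 and a median of 0.00. Blk, a kinase found in B cells as well as in interleukin-17-producing gamma-delta T cells, passed an unadjusted p of 0.05 in edgeR in the higher direction (log2 fold change 1.03, SE 0.24, edgeR adjusted p = 0.657). Kcnk1, a potassium channel, passed it in the lower direction (-0.67, SE 0.28, edgeR adjusted p = 0.657). Over all genes tested, 3.02% passed in the higher and 3.58% in the lower direction. Of the recombination and thymocyte genes, Rag1 had 0 to 8 counts a library, Rag2 0 to 3, Dntt 0 to 17 and Ptcra 0 to 1.

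**Figure D5:**
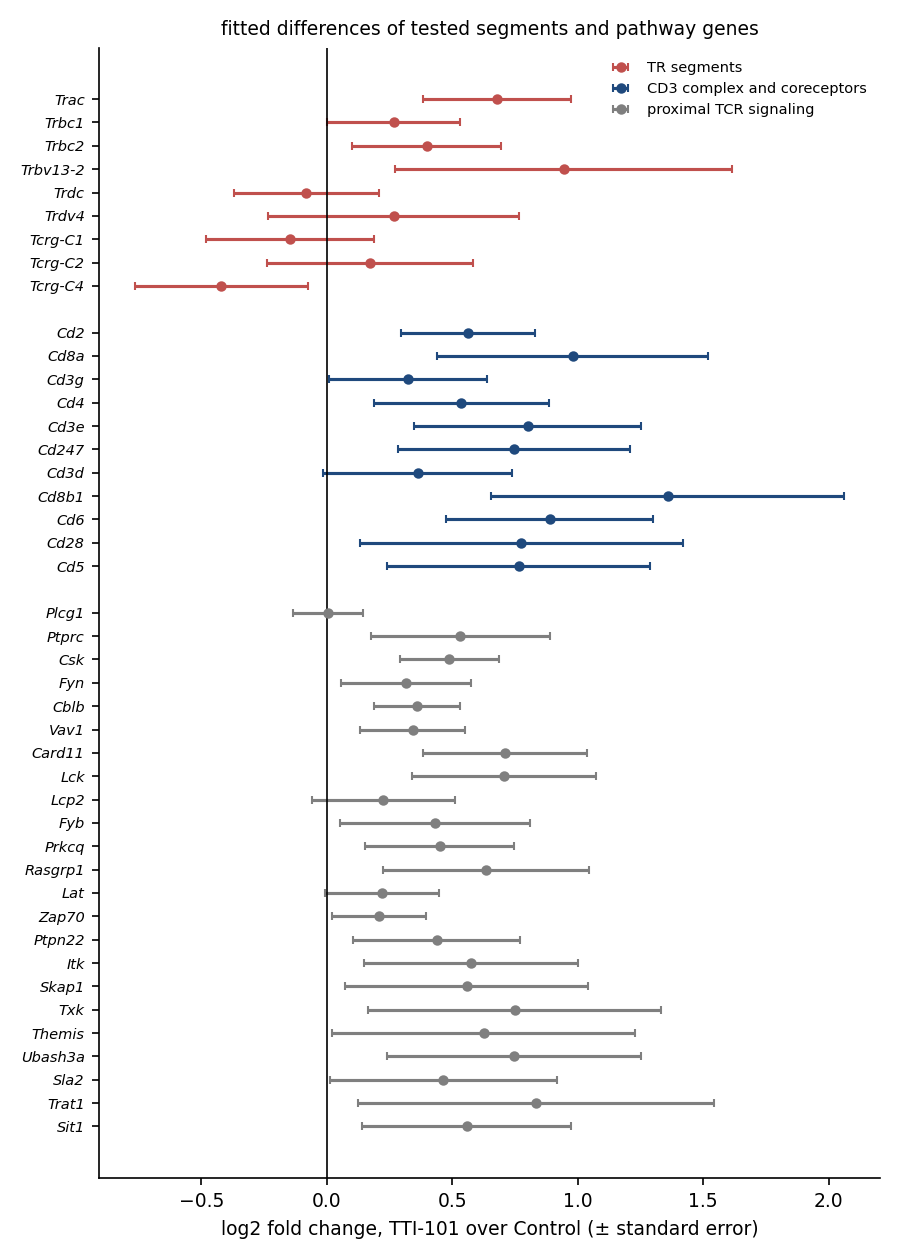
Log2 fold change, TTI-101 over Control, with the edgeR standard error as the bar, for the 9 tested segment genes, the 11 CD3 and coreceptor genes and the 23 proximal signaling genes. The segment genes run from -0.42 for Tcrg-C4 to 0.94 for Trbv13-2, and all 34 pathway genes lie above 0 without passing an adjusted p of 0.05. Trbv13-2 and Trdv4 passed the filter on low counts largely through the TTI-101 group.

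Markers of other cells moved in the same comparison, and their part in the segment values was not tested. Over all genes tested, 50.6% were above 0 and 3.02% passed an unadjusted p of 0.05 in the higher direction. All 9 B cell markers were above 0 (median log2 fold change 1.19) and all 9 passed an unadjusted p of 0.05 in edgeR, with their summed level at 121 to 331 CPM in controls and 283 to 578 CPM with TTI-101. Blk is counted both here and in the gamma-delta list. Of 5 red blood cell markers, 4 passed it, with a median of 2.50 and sums of 58.0 to 264 CPM in controls and 205 to 1586 CPM with TTI-101. Natural killer cells share signaling genes with T cells, and their 9 markers had a median of 0.70, 1 passing (Prf1), with sums of 20.0 to 86.6 and 49.5 to 139 CPM. Lymph node stroma markers, tested for 2 of 6 genes, had a median of -0.55 and sums of 12.6 to 45.1 and 8.10 to 21.2 CPM. Those tested were Cxcl13 (-0.27) and a Ccl21a entry on a scaffold outside the main chromosomes (-0.83). The Ccl21a entry on chromosome 4 had 29 counts and was not tested. Ccl19 on chromosome 4, also not tested, had 0 counts in every control and 15, 0, 2 and 1 with TTI-101. edgeR called 0 genes of these lists after adjustment.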

How the data were processed

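Whole-lung poly(A) RNA was prepared with a stranded kit. The submitters' processing notes name STAR, DESeq2 and build mm10, and the counting tool is not given in the sources used here. The authors deposited whole-number counts for each gene, without normalization. From these counts, edgeR 4.0.16 in R 4.3.3 scaled libraries by TMM, kept genes by filterByExpr (minimum count 10) and ran robust quasi-likelihood tests with Benjamini-Hochberg adjustment over all 17138 genes kept. Single genes were also compared on log2 CPM (prior count of 0.5 reads) by an exact permutation test. DESeq2 1.42.0, limma-voom (limma 3.58.1), other scalings and filters, a replicate block and leaving out each library were alternatives. Sums, shares and segment numbers were described without a test. The labels number the samples without naming separate animals, so p-values measure the spread between these samples.

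Named were all C genes, the V and J genes of highest mean CPM in each chain, the tested segments of lowest p, segments of innate-like T cells, and the pathway genes of highest mean CPM. D segments, Trbv13-1, Trbv13-3, Trbv12-1, Trav7d-4, Cd3e, Cd3d, Cd6, Cd247, Lck, Blk, the recombination genes, Gm43434 and the lung markers were named after their values were seen. The members and gene lists were chosen with earlier results of these data known.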

Additional observations from a re-analysis of the deposited data

Results flagged for a closer look

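In 3 of 36 groups of 4 libraries tested for an extreme value (Dixon's test at 95%), 1 library lay far from the other 3, where chance gives about 1.8, or 1 in 20 groups. All 3 were values of control 1, the deepest library. Trdv4 was at 1.28 CPM in control 1 and at 0.384 to 0.444 CPM in the other controls. The gamma chain sum was 12.4 CPM in control 1 and 6.10 to 6.82 CPM in the others. V counts per 100 constant-region counts were 22.6 in control 1 and 9.24 to 11.3 in the others.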

How the results depend on the processing

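After adjustment, 0 segment genes passed in any of the 7 other settings or with any 1 library left out, and the same held for the pathway list. The number of segment genes at an unadjusted p under 0.05, 1 in edgeR, was 3 with DESeq2, 2 with limma-voom, 6 without a filter on low counts, and 0 to 2 with a library left out, beside 5.32%, 6.41%, 5.81% and 2.42% to 14.2% of all genes tested there; it was 0 without control 2, 3 or 4 or TTI-101 1, 3 or 4. With no filter, 141 segment genes were tested, most with few counts. The delta sum's log2 difference was 0.54 from V genes alone, and the raw number of V segments differed by 15.8, against 5.54 at equal counts; the cause was not tested in the delta sum, while the raw number also reflects depth. With a library left out, log2 fold changes ranged from -0.25 to 0.080 for Trdc, -0.31 to 0.14 for Tcrg-C1 and -0.081 to 0.48 for Tcrg-C2, so their signs are not settled. The alpha difference ranged from 0.60 to 1.02, beta from 0.17 to 0.70, gamma from -0.15 to 0.19, delta from -0.14 to 0.16, the gamma-delta share from -7.98 to -3.49 points and the V segments from 3.36 to 7.32. Same-numbered libraries correlated at 0.393, 0.0822, 0.158 and 0.0707 after removing group means, with the replicate 1 libraries alone each other's best match, and no source names what a number shares, so the numbers were not taken to pair the samples; the replicate block left 1 gene at an unadjusted p under 0.05, Trac (log2 fold change 0.73, p = 0.0146, adjusted p = 0.577 from edgeR), and brought 4 of the 11 CD3 and coreceptor genes under it (Cd247, Cd3e, Cd6 and Cd8a), beside 7.57% of all genes. Trdv4 and Trbv13-2 could not be fitted with at least 10 counts required in every library. Of the other values recomputed, 310 kept their direction and side of an adjusted p of 0.05 or, with no test, moved by less than 1 SD. Unadjusted p-values were not part of that rule for single genes, and those of Trac and Cd8a from edgeR crossed 0.05 in some of these fits. Depth limited all V, D and J genes.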

Other observations

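The 44 T cell receptor segment pseudogenes of the deposited annotation, which were left out of all sums above, held 31 counts over the 8 libraries, against 9829 counts in the 226 segment genes.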
